A study of Arabidopsis thaliana with 12 samples.

Results

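The genes described here are 10 nuclear genes for proteins of photosynthesis, each read by 1 probe of an expression array hybridised with root RNA of Arabidopsis thaliana. They were chosen by locus: a probe was taken where the platform annotation paired it with a single gene and that gene was one of the 10. They are 10 of the 689 genes that the array reads with a single-gene probe, and the deposited table holds 3439 probes in all. By role they are LHB1B2 (AT2G34420) of the light-harvesting antenna, PSB27 (AT1G03600), PSBY (AT1G67740) and PSBW (AT2G30570) of photosystem II, PSAN (AT5G64040) of photosystem I, NdhS (AT4G23890) and NdhN (AT5G58260) of the chloroplast NDH complex, SBPASE (AT3G55800) and PRK (AT1G32060) of the Calvin cycle, and AT5G58330, annotated as an NADP-dependent malate dehydrogenase.

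In the chloroplast, antenna proteins pass light energy to photosystems II and I, which drive electrons along the thylakoid membrane, and the NDH complex returns electrons from ferredoxin to the plastoquinone pool. The ATP and NADPH made in this way power the Calvin cycle in the stroma, where carbon dioxide is fixed and its acceptor is regenerated. These functions belong to green tissue; root plastids are mostly non-green, and transcripts of nuclear photosynthesis genes are known to be far lower in roots than in leaves, although roots exposed to light can green.

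The samples were total RNA from roots of ecotype Wassilevskija, 6 of the wild type (WT) and 6 of aap3, a mutant that lacks the amino acid transporter AAP3. Replicates are numbered 1 to 6 in each group. The allele, plant age, growth conditions, light on the roots and treatment, and whether a replicate is a separate plant, pool or hybridisation, are not stated in the labels. The p-values therefore reflect the scatter among these 12 samples alone, and that scatter may be technical. No single-gene probe read AAP3, any of 27 root marker genes or any of 15 green shoot marker genes, so neither the mutant label nor the root label was checked by its defining genes. In bulk RNA, more cells expressing a gene and more RNA per cell cannot be told apart.

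The deposited values are linear intensities on an unstated scale, with sample medians of 0.476 to 0.536 and a highest value just under 100. Differences are given on a log2 scale after division by the sample median, a floor at 0.200 sample medians and quantile normalization. Replicates 1 and 2, 3 and 4, and 5 and 6 resembled each other within each group and are called couples below. Over the 2859 probes above the floor in all samples, the median absolute log2 gap between the members of a couple was 0.11 to 0.13, against 0.15 to 0.26 between samples of different couples of a group. The couples were noticed in these data and are not stated in the labels. Intensities of different probes are not compared as transcript levels, because each probe has its own response. Ranks of intensity are given only to describe what quantile normalization does to bright probes.

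All 10 probes lay above the floor in all 12 samples, so every gene of the set gave a reading in WT and in aap3 roots. Signal over background was not used here, so a reading above the floor is not a proof of transcript. Their pooled SD within groups ranged from 0.08 to 0.72 on the log2 scale, with a median of 0.19, close to the median of 0.21 over all probes above the floor. PSB27 and LHB1B2 had the widest spread, larger than that of 99.4% and 97.9% of those probes. SBPASE followed at 92.4%, and NdhN had the narrowest, larger than that of only 2.80%.

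**Figure D1:**
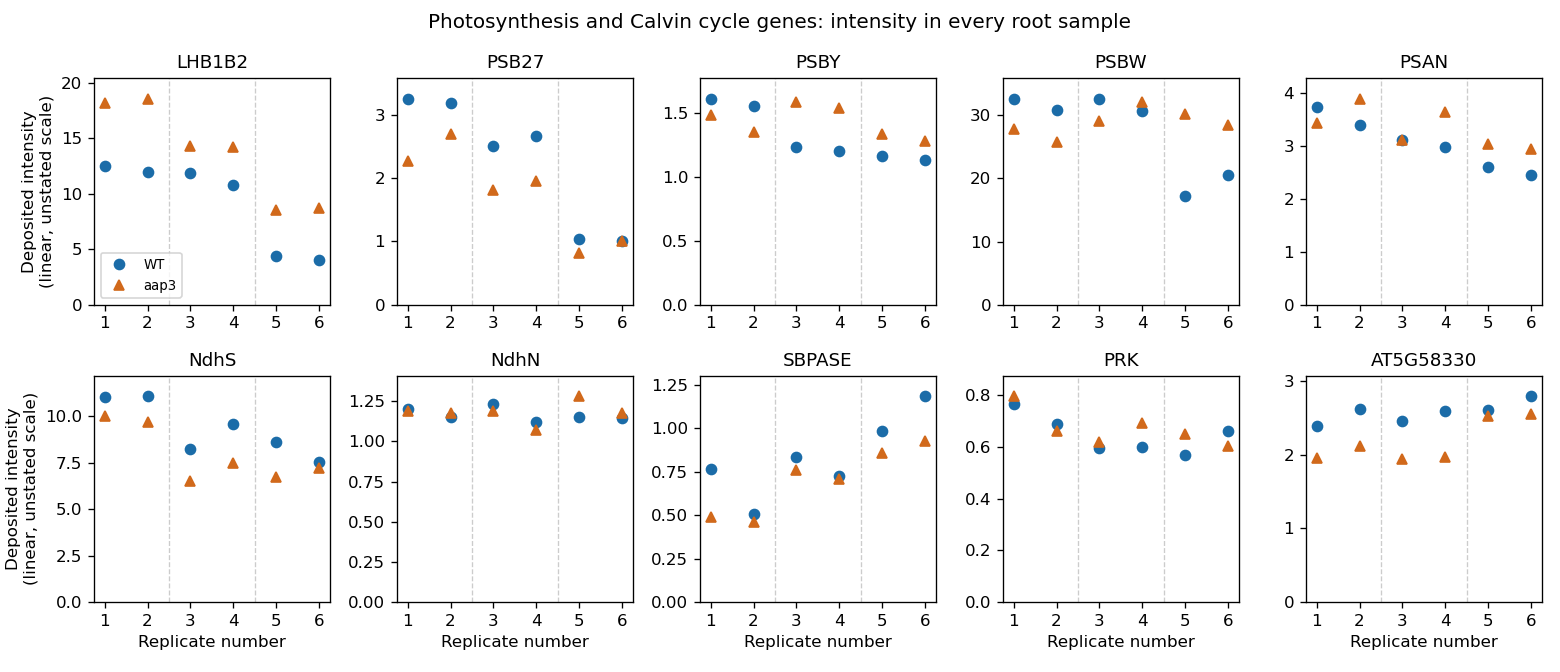
Deposited intensity (linear, unstated scale, axes from 0) of each gene against replicate number, with WT as circles and aap3 as triangles and dashed lines between the couples. LHB1B2 and PSB27 were lowest in replicates 5 and 6 of each group, and SBPASE was highest there.

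LHB1B2 encodes a chlorophyll a/b-binding protein of the main light-harvesting antenna of photosystem II. In WT replicates 1 to 6 its intensity was 12.5, 11.96, 11.9, 10.8, 4.43 and 4.02, and in aap3 it was 18.2, 18.6, 14.4, 14.3, 8.58 and 8.76. Replicates 5 and 6 were the lowest of each group, and aap3 was above WT at every replicate number, but the ranges overlapped because WT replicates 1 to 4 lay above aap3 replicates 5 and 6. WT averaged 9.27 ± 3.95 and aap3 13.8 ± 4.37 (SD, n = 6 each). The antenna gene family has several near-identical members, and whether this probe also reads them was not tested.

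PSB27 is a lumenal protein that takes part in the assembly and repair of photosystem II. Its intensity in WT was 3.25, 3.19, 2.51, 2.67, 1.03 and 1.01 in replicates 1 to 6, and in aap3 2.27, 2.70, 1.82, 1.95, 0.822 and 1.01. As with LHB1B2, replicates 5 and 6 were the lowest of each group, and the highest couple was 3.08-fold above the lowest in WT and 2.62-fold in aap3 after normalization. Within couples the log2 gap was at most 0.07 in WT and 0.28 in aap3. WT averaged 2.28 ± 1.01 and aap3 1.76 ± 0.73 (SD, n = 6), so the means differed by less than either SD.

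PSBW and PSBY are small membrane-spanning subunits of photosystem II. PSBW read 32.6, 30.8, 32.6, 30.6, 17.2 and 20.5 in WT, and 27.9, 25.7, 29.2, 32.1, 30.2 and 28.5 in aap3. WT replicates 5 and 6 were thus below every other sample, and the aap3 samples of the same numbers were not. PSBY ranged from 1.13 to 1.61 in WT with a median of 1.21, and from 1.28 to 1.58 in aap3 with a median of 1.41. Its WT replicates 1 and 2, at 1.61 and 1.55, stood above the other 4, at 1.13 to 1.23.

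PSAN is a lumenal subunit of photosystem I that helps plastocyanin dock. It ranged from 2.45 to 3.73 in WT, with a median of 3.05, and from 2.94 to 3.89 in aap3, with a median of 3.27. Its lowest WT readings were again replicates 5 and 6, at 2.60 and 2.45.

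NdhS contributes to the ferredoxin-binding site of the NDH complex, and NdhN is one of its stromal subunits. NdhS ranged from 7.53 to 11.1 in WT (median 9.08) and from 6.53 to 10.002 in aap3 (median 7.35), and was highest in replicates 1 and 2 of each group. NdhN was the steadiest of the 10, at 1.12 to 1.23 in WT (CV 3.54%) and 1.07 to 1.28 in aap3 (CV 5.64%).

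SBPASE, sedoheptulose-1,7-bisphosphatase, and PRK, phosphoribulokinase, act in the regeneration of the carbon dioxide acceptor. SBPASE read 0.762, 0.507, 0.836, 0.727, 0.985 and 1.18 in WT, and 0.491, 0.463, 0.760, 0.709, 0.856 and 0.925 in aap3. Its readings by couple ran opposite to those of LHB1B2 and PSB27, with replicates 5 and 6 the highest of each group. PRK ranged from 0.568 to 0.766 in WT and from 0.602 to 0.795 in aap3, with a CV of 11.5% and 10.3%.

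AT5G58330, the chloroplast malate dehydrogenase that passes reducing power from NADPH to malate, ranged from 2.39 to 2.79 in WT (CV 5.46%) and from 1.94 to 2.55 in aap3 (CV 13.2%). The aap3 samples fell into replicates 1 to 4, at 1.94 to 2.11, and replicates 5 and 6, at 2.52 and 2.55, which lay inside the WT range.

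**Figure D2:**
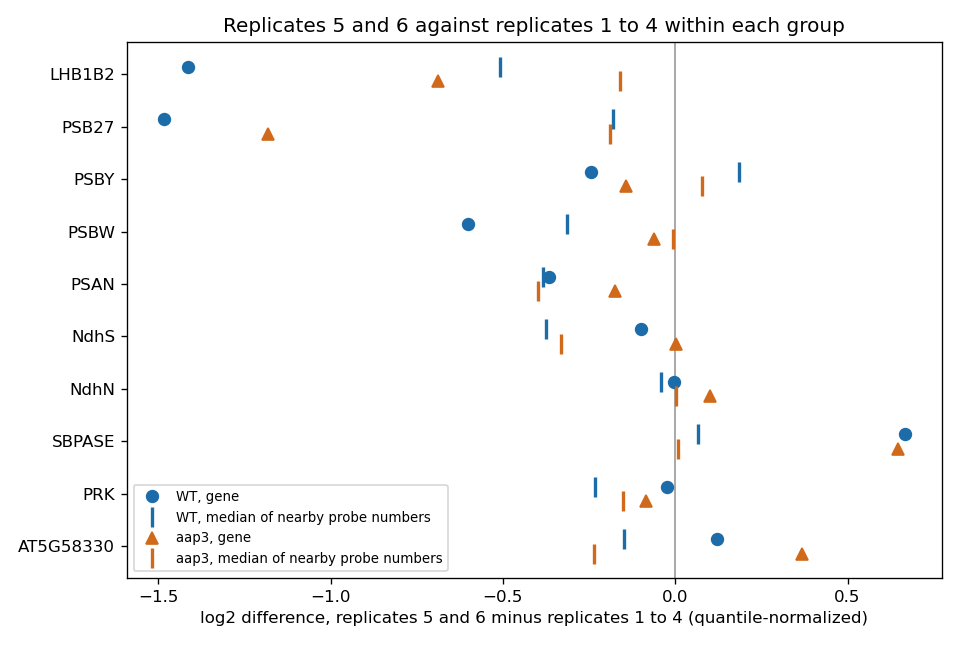
Difference on the quantile-normalized log2 scale between replicates 5 and 6 and replicates 1 to 4, for each gene in WT (circles) and aap3 (triangles), with vertical ticks for the median of the probes within 12 probe numbers. PSB27 lies below -1 in each group, LHB1B2 below -1 in WT, and SBPASE near 0.65 in each.

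Replicates 5 and 6 were set against replicates 1 to 4 within each group, as a description with no test since the couples were seen in the data. PSB27 differed by -1.48 in WT and -1.18 in aap3, and was over 2-fold lower in each group, as were 22 of the 2859 probes above the floor (0.769%). LHB1B2 differed by -1.41 in WT and -0.69 in aap3. SBPASE differed by 0.67 and 0.65 in the other direction. Over all probes above the floor the median absolute difference was 0.21 in WT and 0.19 in aap3.

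PSBW differed by -0.60 in WT and by -0.06 in aap3, and PSAN by -0.37 and -0.17. PSBY differed by -0.24 and -0.14, and AT5G58330 by 0.12 and 0.37. For NdhS, NdhN and PRK these differences lay between -0.10 and 0.10 in each group. The sign was the same in WT and aap3 for 8 of the 10 genes, beside 77% of all probes above the floor, so a shared sign is common on this array. Readings at nearby probe numbers moved with some of these genes and against others. Within 12 numbers of LHB1B2 the median difference was -0.51 in WT and -0.16 in aap3, near PSBW it was -0.31 and -0.01, and near PSAN -0.38 and -0.40. Near NdhS, whose nearby probes overlap those of PSAN, it was -0.38 and -0.33, beside -0.10 and 0.00 for the gene. Near PSBY, at 0.19 and 0.08, and near AT5G58330, at -0.15 and -0.23, it had the opposite sign to the gene. Near PSB27 it was -0.18 and -0.19, and near SBPASE 0.06 and 0.01, far smaller than those genes' own. What neighbouring probes contribute to the readings was not tested.

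The comparison of aap3 with WT asked whether these transcripts differ in roots that lack AAP3. None of the 10 genes passed an adjusted p of 0.05 in limma fitted over all 3439 probes, where 172 probes (5%) passed, 86 in each direction. Without adjustment 2 of the 10 had a p under 0.05, NdhN and AT5G58330, beside 609 of all probes (17.7%). The WT and aap3 ranges overlapped for all 10, while 142 of all probes (4.13%) had groups apart. The log2 difference was above 0 for 6 genes and below 0 for 4, with a median of 0.07. Over all probes the median was 0.00, which says little because quantile normalization gives every sample the same distribution. The median size regardless of sign was 0.19 for the 10 genes, and 0.12 over probes above the floor.

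LHB1B2 had the highest estimate of the 10, 1.55-fold higher in aap3, at 0.63 ± 0.32 on the log2 scale (SE, limma adjusted p = 0.359). Its interval ran from 0.942-fold to 2.55-fold. The difference was above 0 in 6 of 6 replicate pairs, from 0.11 in replicate 3 to 1.21 in replicate 6. By couple it was 0.51, 0.26 and 1.11, while the probes within 12 numbers had median differences of -0.10, -0.03 and 0.09. With the replicate number as a block its SE was 0.15 and its limma adjusted p 0.0441, the only 1 of the 10 that passed, where 587 of all probes (17.1%) passed. A share of 1 in 10 is below that background. With each couple averaged to 1 value, the SE was 0.48 and the limma adjusted p 0.8, in a fit that called 1 of 3439 probes (0.0291%). With the couples averaged and also used as a block, the limma adjusted p of LHB1B2 was 0.254, in a fit that called 0 probes (0%, and 755 at an unadjusted p under 0.05).

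**Figure D3:**
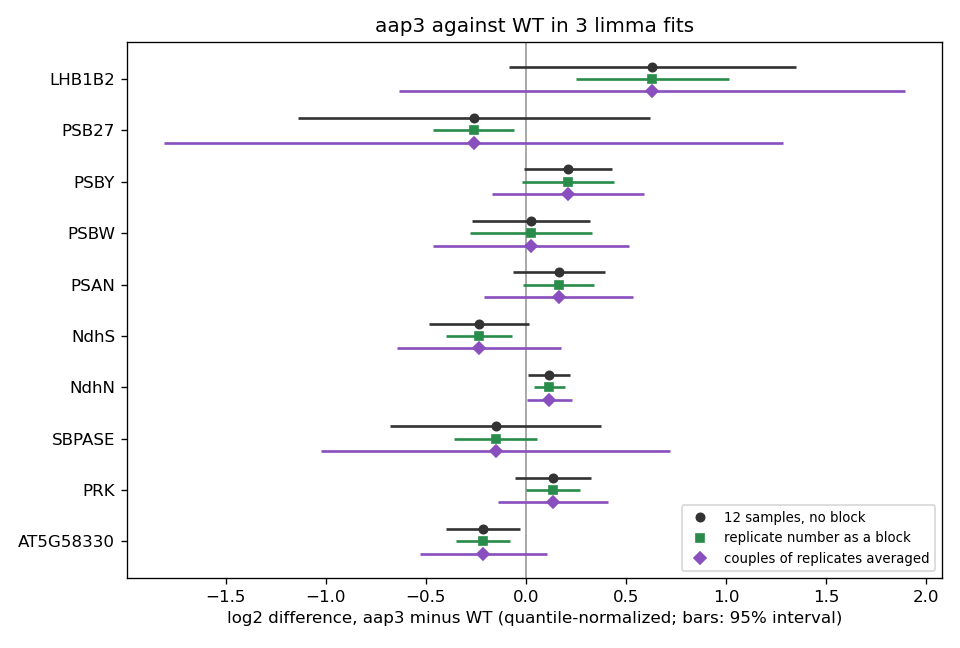
Difference between aap3 and WT on the quantile-normalized log2 scale for each gene, with 95% intervals from limma fitted on 12 samples, with the replicate number as a block, and with couples averaged. The interval of LHB1B2 leaves 0 only with the block, and those of PSB27 and SBPASE are narrower with the block than without it. With the block the intervals of PSB27, NdhS, NdhN, PRK and AT5G58330 leave 0 as well, and that of NdhN does in every fit shown. How many of all probes have such an interval with the block was not counted, and 17.1% of all probes passed there even after adjustment. The intervals are not adjusted for the number of probes.

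Among the photosystem genes, PSB27 differed by -0.26 ± 0.40 on the log2 scale (SE, limma adjusted p = 0.866), with aap3 below WT in 5 of 6 pairs. With the block the SE was 0.08 and the limma adjusted p 0.079. PSBY had a difference of 0.21 ± 0.10 (adjusted p = 0.302). Its direction split by couple, with aap3 below WT in replicates 1 and 2, at -0.07 and -0.11, and above in the other 4, by 0.27 to 0.45. The probes near PSBY had a median difference of -0.19, opposite to its own, and those near PSB27 -0.11, of the same sign.

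The aap3 minus WT value of PSBW was 0.03 ± 0.13 on the log2 scale (limma adjusted p = 1), which averages opposite signs: -0.11 and -0.20 in the first couples and 0.39 in replicates 5 and 6. The probes near PSBW had medians of -0.01, 0.01 and 0.36 in the same couples. PSBW stood between rank 8 and 15 of all probes by intensity in every sample, and quantile normalization gave it only 6 distinct values over 12 samples. LHB1B2, at rank 19 to 102, had 9 distinct values, and NdhS, at rank 31 to 56, had 10. With median scaling alone the couples of PSBW had -0.18, 0.05 and 0.69, so the sign in replicates 3 and 4 turned. The overall difference of PSBW was then 0.19 (limma adjusted p = 0.611). Without WT replicate 5 or 6 the normalized difference was -0.08 or -0.05. PSAN had a difference of 0.16 ± 0.10 (adjusted p = 0.487) and was higher in 5 of 6 pairs; the probes near it had a median of -0.10. Without WT replicate 6 the PSAN value was 0.11.

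The NDH subunits had estimates of opposite sign. NdhS differed by -0.23 ± 0.11 (limma adjusted p = 0.313) and was below WT in 6 of 6 pairs, with an interval from 0.716-fold to 1.01-fold. NdhN differed by 0.12 ± 0.05 (adjusted p = 0.21) and was above WT in 6 of 6 pairs, with an interval from 1.01-fold to 1.16-fold. On the deposited values without scaling NdhN was higher in 3 pairs and lower in 3, with a difference of 0.02 (adjusted p = 0.931), so its size and pair count, though not the sign of the estimate, depend on the scaling between samples. NdhS was lower in 6 of 6 pairs on the deposited values as well. With median scaling alone the difference of NdhS was smaller, at -0.17 (limma adjusted p = 0.614). The probes near NdhS had a median difference of -0.10 and those near NdhN 0.02, each of the gene's own sign. NdhS and PSAN lie within 12 probe numbers of each other, so the medians near them share probes and are not separate readings.

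In the Calvin cycle, SBPASE differed by -0.15 ± 0.24 (SE, limma adjusted p = 0.87) and PRK by 0.14 ± 0.09 (adjusted p = 0.498). The SE of SBPASE was 0.08 with the replicate block, where its adjusted p was 0.268. SBPASE was lower in 5 of 6 pairs, and by 0.55 in replicate 1, the pair farthest from 0; on the deposited values it was lower in 6 of 6. The probes near SBPASE had a median difference of -0.14, about its own value, and what they contribute was not tested. PRK was higher in 5 of 6 pairs, and its difference was 0.05 on unscaled values and 0.08 without aap3 replicate 1. The probes near PRK had a median of -0.02.

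AT5G58330 differed by -0.21 ± 0.08 (limma adjusted p = 0.196), or 0.863-fold with an interval from 0.759-fold to 0.981-fold, and was lower in 6 of 6 pairs. The difference was -0.23 and -0.36 in the first couples and -0.05 in replicates 5 and 6, where the probes near it had medians of 0.05, 0.06 and -0.02. With the block the limma adjusted p was 0.0505, just above the threshold, beside 0.0535 for NdhN and 0.0656 for NdhS.

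**Figure D4:**
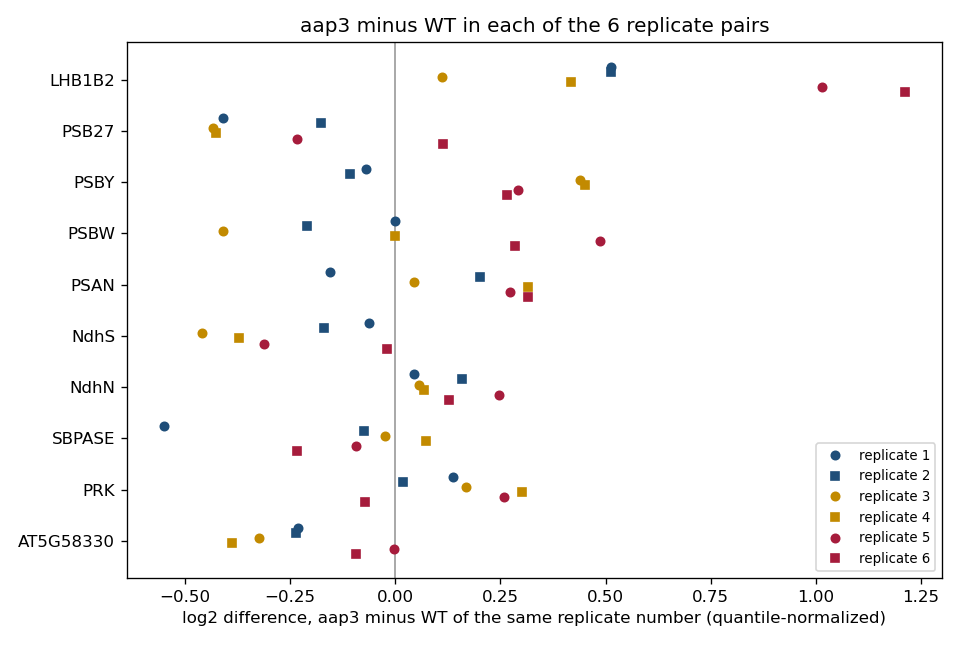
Difference between the aap3 and the WT sample of each replicate number on the quantile-normalized log2 scale, coloured by couple. LHB1B2 and NdhN lie above 0 in all 6 pairs and NdhS and AT5G58330 below 0, while PSBY and PSBW change sign between couples.

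In total 4 of the 10 genes went one way in 6 of 6 pairs, 2 higher (LHB1B2 and NdhN) and 2 lower (NdhS and AT5G58330), beside 23.9% of all probes. On the deposited values 4 genes did so, 1 higher (LHB1B2) and 3 lower (NdhS, SBPASE and AT5G58330). The share of all probes was not counted on those values, so this count has no background beside it. Over all probes the median log2 difference was -0.05 on the deposited values, which is itself on the lower side. With the replicate number as a random block, LHB1B2, NdhS, NdhN and AT5G58330 passed the limma threshold, beside 713 of all probes (20.7%). Neighbouring replicates are not shown to be independent, so these counts do not rest on 6 separate pairs.

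Few other genes of the pathway are named in the annotation of this array, in which 1877 probes have no gene. Of the 104 nuclear photosynthesis genes in a list drawn up for this comparison, 94 are not among the 10, and 0 of these had a single-gene probe. Of these 94, 7 were annotated only on probes shared by several genes, from which none was named. All genes of 2 such probes are in the list. Probe 3446, shared by 3 light-harvesting genes, had an aap3 minus WT value of -0.05 ± 0.07 on the log2 scale (SE, limma adjusted p = 0.87). Probe 4337, shared by 2 genes for a chloroplast ATP synthase subunit, had 0.02 ± 0.16 (limma adjusted p = 1). Neither passed with the replicate block (limma adjusted p = 0.432 and 0.93). RuBisCO small subunit genes, RuBisCO activase and the other antenna genes are therefore not analysed singly here.

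The 3 other single-gene probes whose readings followed the mean standardised profile of the 10 most closely over the 12 samples were AT3G56250, AT1G74070 and SRX (AT1G31170). Their Pearson correlations with it were 0.81, 0.80 and 0.80, given as a description, since the samples form couples within each group. AT1G74070 is of the cyclophilin family, and SRX is a sulfiredoxin. The 10 genes themselves did not share 1 profile: their correlations with the mean ran from 0.87 for PSAN to -0.63 for SBPASE. That mean includes each of the 10 but not the 3 other probes, so these correlations are not comparable with theirs.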

How the data were processed

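The authors deposited 1 linear intensity per probe and sample for 6 WT and 6 aap3 samples; the array type, channels, background correction, normalization and scale are not stated in the labels. Exact zeros made up 5.21% of values. Each sample was divided by its median, floored at the 5th percentile of positive values, log2-transformed and quantile normalized. A floor understates changes of dim probes, and quantile normalization leaves bright probes little but their rank. All 3439 probes were fitted with lmFit and eBayes (limma 3.58.1, R 4.3.3), without covariates, with Benjamini-Hochberg adjustment over all probes and a threshold of 0.05; intervals are 95%. The fit was tested on simulated data with independent samples, which held neither couples nor pairing by number, so their effect was not tested.

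In each of the 6 replicate numbers, the WT and aap3 deviations from their group means correlated at 0.73 to 0.75 over probes. This was read as pairing by number; the labels do not state it. The number of samples limits the precision.

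Probes were named with the platform annotation held by GEO, and symbols were brought up to date with RefSeq's TAIR10.1 genes: 692 have 1 gene (690 matched a locus), 870 several and 1877 none. Genes named are the 10 members, single-gene probes of the photosynthesis, root and shoot lists, and the 3 most alike in profile. Members, lists, couples and settings were chosen with earlier results of these data known. Alternatives were other scalings, an offset, a probe filter, replicate blocks, another variance model, couples averaged, and each sample left out.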

Additional observations from a re-analysis of the deposited data

Results flagged for a closer look

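Among 20 checks for a sample far from the other 5 of its group, 1 stood out. Chance gives 1 in 20 for independent samples, and samples of a couple are not shown to be independent. PRK was higher in aap3 replicate 1, at 0.71 on the quantile-normalized log2 scale against 0.32 to 0.47 in the other aap3 samples, a gap of 0.626 of the group's range. Its deposited intensity there was 0.795. Without this sample the aap3 minus WT difference of PRK was 0.08, beside 0.14 with it.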

How the results depend on the processing

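Each of the 10 genes was refitted under 21 alternatives, giving 210 values. In 203 of them the direction and the side of the threshold were those reported, 5 passed the threshold and 2 changed sign. The fits with a block, another variance model, the probe filter or couples averaged keep the main estimate, so the sign could not change there. Both sign changes were PSBW, at -0.077 without WT replicate 5 and -0.049 without WT replicate 6. The 5 were LHB1B2 with the replicate block (limma adjusted p = 0.0441) and LHB1B2, NdhS, NdhN and AT5G58330 with a random replicate block (0.0376, 0.0384, 0.0202 and 0.0181). The count of the 10 genes called was therefore 1 with the replicate block, 4 with the random block and 0 in every other fit, including each of the 12 omissions of 1 sample (0 to 0). The count over all probes, 172, was 587 with the replicate block, 713 with the random block, 281 on deposited values without scaling, 1 with couples averaged (373 at an unadjusted p under 0.05) and 0 with couples averaged and their replicate block (755), in limma. Averaging leaves 3 values per group; for the other counts the cause was not tested. Omissions of 1 sample gave 128 to 189. They moved PSBW between -0.077 and 0.094, LHB1B2 between 0.43 and 0.75, PSB27 between -0.47 and -0.07 and SBPASE between -0.28 and -0.04. PSAN went from 0.16 to 0.11 without WT replicate 6, and PRK from 0.14 to 0.08 without aap3 replicate 1. No other listed photosynthesis gene has a single-gene probe, so their count has no value; the 2 shared probes were read only without and with the replicate block. No background reading bears on these limits.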
